A study of Homo sapiens with 4 samples.

Results

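The androgen target genes described here were 38 genes that androgens switch on in prostate epithelium, and they were taken from the count table by their symbols. All 38 were present among the 60606 genes of the table, and all 38 were among the 19349 genes that passed the expression filter. RNA was sequenced from LNCaP-DaroR cells after transfection of control siRNA (siControl, 2 libraries) or of an siRNA pool against the long non-coding RNA LOC730101 (siLOC730101, 2 libraries), each at 20 nM. LNCaP is an androgen-responsive prostate cancer cell line, and DaroR, which the labels call hormone insensitive, is its derivative that was kept in 10 μM darolutamide, an antiandrogen, for 12 months. Both groups carried that resistance, both were grown in medium with 10% serum, and both came from this 1 derivative. In describing the knockdown, the paper states that DaroR cells grew with 10 μM darolutamide in the medium, a treatment both groups shared. That dose comes from the paper and not from the labels. Neither untreated LNCaP cells nor a second resistant line was a reference here. The comparison addressed what the loss of LOC730101 does in the resistant cells, seen through the genes of the hormone response that darolutamide blocks. The labels number 2 samples per group without saying whether these were separate cultures, so the p-values measure only the spread between these samples, which may be technical.

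Androgens are steroid hormones that act on prostate cells through response elements in DNA, most of which lie in enhancers that the pioneer factor FOXA1 has opened. In luminal prostate cells they drive secreted products such as prostate-specific antigen (KLK3), and also genes of lipid metabolism, protein processing and growth control. Antiandrogens such as darolutamide block this response, and the genes it drives are widely used as a readout of how active androgen signalling is.

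The DNA near the start of these genes was looked at first, because androgens act through DNA elements. RefSeq promoter windows (build GRCh38.p14, 250 bases before to 50 bases after a start) were given for 28 of the 38 genes, in 50 windows. The full element was written as GNACANNNTGTNC, which reads the same on both strands, and it occurred in 0.390% of 35116 windows of the same length and, among these genes, in GNMT alone. The looser GNACANNNNGTNC, which includes every match of the first and was searched on both strands, occurred in 2.19% of windows and, among these genes, in KLK3, KLK2 and GNMT. Counted by gene, the full element was in 0.480% of all genes and in 1 of the 28 here. The looser form was in 2.65% of all genes and in 3 of the 28 here (3 of their 50 windows). These 3 windows are shown with the 13 bases of the match in capitals. The window of AZGP1, the gene with the highest fold change in the knockdown, is shown beside them without a match.
KLK3 (chr19:50854665-50854964, plus strand): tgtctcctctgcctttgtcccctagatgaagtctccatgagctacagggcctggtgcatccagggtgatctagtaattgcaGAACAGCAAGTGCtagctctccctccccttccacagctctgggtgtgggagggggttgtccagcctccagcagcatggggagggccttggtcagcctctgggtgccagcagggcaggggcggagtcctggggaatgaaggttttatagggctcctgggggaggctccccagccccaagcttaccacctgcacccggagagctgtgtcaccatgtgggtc
KLK2 (chr19:50873189-50873488, plus strand): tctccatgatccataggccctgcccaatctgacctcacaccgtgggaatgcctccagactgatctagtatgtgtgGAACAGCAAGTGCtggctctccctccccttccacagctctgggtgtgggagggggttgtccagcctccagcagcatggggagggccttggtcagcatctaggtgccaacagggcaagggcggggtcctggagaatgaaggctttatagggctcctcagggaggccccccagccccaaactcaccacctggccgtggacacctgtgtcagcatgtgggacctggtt
GNMT (chr6:42960504-42960803, plus strand): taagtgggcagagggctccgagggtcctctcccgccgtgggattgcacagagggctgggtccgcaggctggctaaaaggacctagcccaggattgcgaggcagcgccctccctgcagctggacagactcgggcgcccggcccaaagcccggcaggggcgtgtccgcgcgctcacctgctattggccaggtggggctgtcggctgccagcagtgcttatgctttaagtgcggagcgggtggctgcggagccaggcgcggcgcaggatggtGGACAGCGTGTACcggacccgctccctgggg
AZGP1 (chr7:99975982-99976281, minus strand): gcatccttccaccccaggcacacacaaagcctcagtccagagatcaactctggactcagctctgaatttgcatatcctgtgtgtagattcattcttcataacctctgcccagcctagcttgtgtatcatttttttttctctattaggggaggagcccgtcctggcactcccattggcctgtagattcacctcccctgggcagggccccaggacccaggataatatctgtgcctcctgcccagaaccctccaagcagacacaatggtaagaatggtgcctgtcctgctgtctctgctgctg
KLK3 and KLK2 are neighbouring kallikrein genes, and both held the same 13 bases, GAACAGCAAGTGC, from 169 to 157 bases before the start in KLK3 and from 175 to 163 bases before it in KLK2. Over the aligned windows, 251 of 313 columns were identical (80.2%). The match in GNMT, GGACAGCGTGTAC, lay from base 20 to base 32 after the start. The half-site AGAACA, searched on both strands, was in at least 1 window of 17.5% of all genes and of 8 of the 28 genes here (9 of their 50 windows, against 14.8% of all windows). These were FKBP5, KLK3, LIFR, PMEPA1, SGK1, STK39, TRPM8 and TSC22D1, and in KLK3 the half-site overlapped the longer match. A match of these letters is a description of the window and says nothing about whether any factor bound there.

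The target of the siRNA was checked next. LOC730101 (ENSG00000216775, hg38 chromosome 6, 52664366 to 52669155, plus strand) was counted 2560 and 2370 times in siControl but 633 and 680 times in siLOC730101. Its normalized level fell from 49.0 ± 2.32 to 16.7 ± 1.77 CPM (counts scaled to the normalized library size; SD, n = 2), a loss of 66.0% (log2 fold change -1.56, SE 0.12, adjusted p = 4.34e-06, edgeR's quasi-likelihood test). The libraries held 39213498 to 53368158 counts. Luminal markers (KRT8, KRT18, EPCAM, HOXB13, FOXA1, FOLH1) had 10771 to 61693 counts in each library, whereas 5 basal markers had at most 24 counts and 5 immune markers at most 12. The marker sums below were scaled to the raw total counts of each library, without the normalization used for other CPM. On that raw scale the 6 luminal markers summed to between 3340 and 3392 CPM in all 4 libraries. On the normalized scale KRT8, KRT18, EPCAM, HOXB13 and FOXA1 were each highest in siLOC730101 replicate 2, where FOLH1 was lowest. The log2 fold change was above 0 for 5 of the 6, with KRT8 the highest at 0.18. FOLH1, the most abundant, was at -0.14. The median was 0.077 and 0 were called. The summed CPM of 6 neuroendocrine markers lay between 2.79 and 3.67 on the raw scale. Of 6 stromal markers, COL1A1 reached 797 counts, and the sum lay between 14.7 and 18.5 CPM on the raw scale.

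All androgen target genes were expressed in the resistant cells, and many were among the most abundant mRNAs for their length. The lowest count of any of them in any library was 241 (HPGD) and the highest was 98401 (KLK3), and 4 genes had under 700 counts in every library (PTGER4, HPGD, SGK1 and EAF2). Levels were compared between genes as normalized CPM per kilobase of exon. On that scale KLK3 stood at 356.5 in siControl, at the 99.7th percentile of the genes tested, followed by KLK2 at 143.6, KLK4 at 139.3, SPDEF at 124.9, SLC45A3 at 116.5 and PLPP1 at 113.0. KLK3 stood above KLK2 in every library, whereas the ranges of KLK2 and KLK4 overlapped, and so did those of SLC45A3 and PLPP1. Of the 38 genes, 19 were in the top 10% of all genes tested, and 2 were under the median of 2.58 CPM per kilobase, HPGD at 1.24 and SGK1 at 0.98. Together the 38 genes took 1.12% and 0.983% of all counts in the siControl libraries and 1.09% and 1.08% in the siLOC730101 libraries, so that the lowest share was that of siControl replicate 2 and the other 3 libraries lay within 1.08% to 1.12%.

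**Figure D1:**
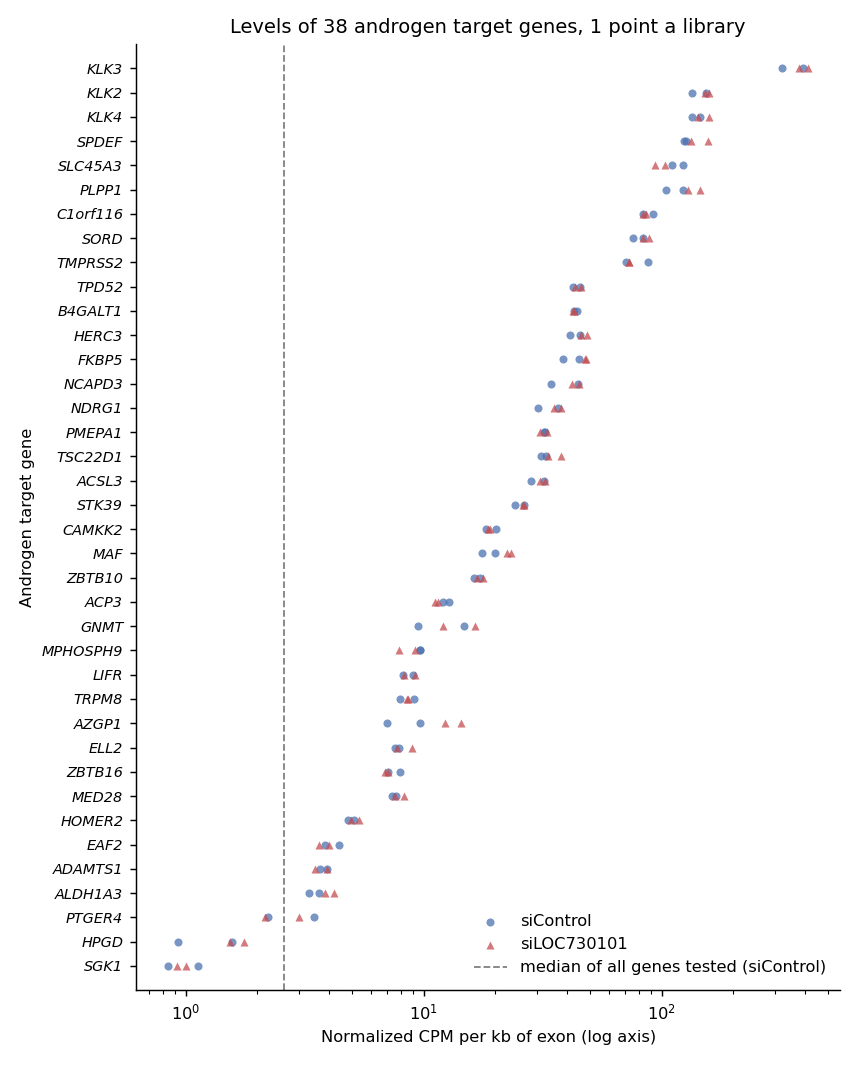
Normalized CPM per kilobase of exon (log axis) of the 38 androgen target genes, 1 point for each library, with siControl as circles and siLOC730101 as triangles; the dashed line is the median of the genes tested in siControl. Genes are ordered by their siControl level from KLK3 (356.5) to SGK1 (0.98), and for most genes the points of the groups overlap.

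After LOC730101 knockdown, 0 of the 38 genes passed an adjusted p of 0.05 in either direction in edgeR, where 0.212% of all genes tested passed as higher (41 genes) and 0.0724% as lower (14 genes). At an unadjusted p under 0.05, 5 of the 38 were higher (AZGP1, MAF, PLPP1, SPDEF and FKBP5) and 1 was lower (SLC45A3), against 6.43% and 4.39% of all genes tested. DESeq2 gave an adjusted p to 34 of the 38 and called AZGP1 and MAF higher and 0 lower, against 2.41% higher and 0.663% lower among the 9653 genes it gave an adjusted p. The log2 fold changes of siLOC730101 against siControl ran from -0.24 (SLC45A3) to 0.67 (AZGP1), with a median of 0.064 against -0.0021 over all genes tested, and 25 were above 0 and 13 below. Both siLOC730101 libraries lay above both siControl libraries for 8 genes and below both for 4 genes, where 21.3% and 20.5% of all genes tested did so. These are measurements on bulk RNA, in which fewer cells of a type and less RNA per cell cannot be told apart.

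The fitted intervals gave a range for the differences between these libraries, and not for a response across separate cultures. The 95% interval of the fold change stayed within 1.5-fold in either direction for 34 of the 38 genes and within 2-fold for all 38, and the 4 genes whose interval went beyond 1.5-fold were AZGP1, HPGD, GNMT and PTGER4. The median half-width of the interval was 0.18 on the log2 scale, against 0.37 over all genes tested, many of which had lower counts. Exact permutation of 4 libraries in 2 groups has a smallest two-sided p of 0.333, so the calls rest on the model fitted across all genes. Leaving out siLOC730101 replicate 1 raised the genes called to 6 higher and 1 lower (KLK3, AZGP1, MAF, PLPP1, SPDEF and TSC22D1 higher, MPHOSPH9 lower), in a fit that called 4.30% of all genes higher and 1.27% lower. Leaving out siLOC730101 replicate 2 gave 2 higher and 1 lower, against 0.355% and 0.277% of all genes. Leaving out siControl replicate 1 gave AZGP1 alone, against 0.566% and 0.237%, and leaving out siControl replicate 2 gave 0, against 0.543% and 0.127%. Each such fit takes the lone library to vary like the others.

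**Figure D2:**
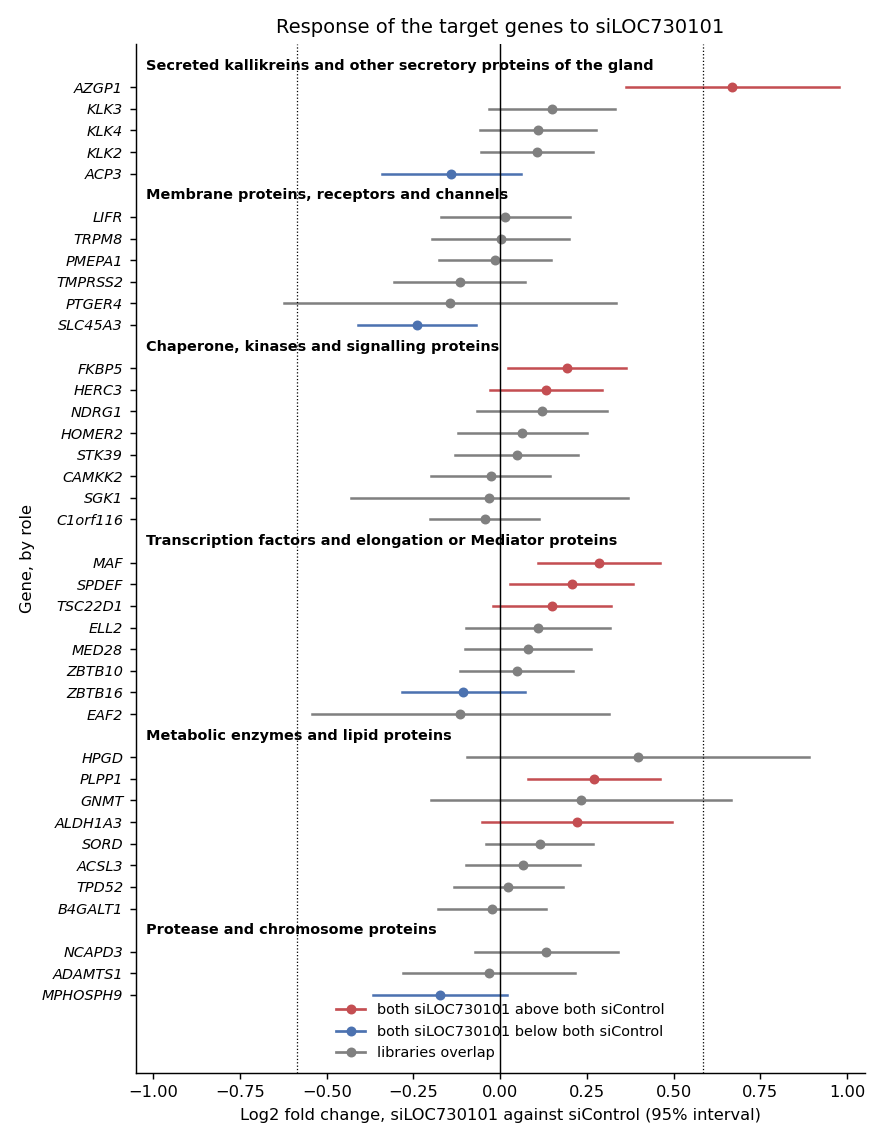
Log2 fold change of siLOC730101 against siControl for each of the 38 genes with its 95% interval, grouped by role; the solid line is no difference and the dotted lines are 1.5-fold. Red marks the 8 genes with both siLOC730101 libraries above both siControl libraries, blue the 4 with both below, and the interval of AZGP1 (0.67) lies farthest from 0.

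Among the 5 secretory products of the gland, 4 had a log2 fold change above 0 and 1 below, with a median of 0.11. KLK3, the serine protease measured as prostate-specific antigen (chromosome 19, 50854915 to 50860764), had 1820 and 1487 CPM in siControl and 1753 and 1916 CPM in siLOC730101. Its siLOC730101 libraries straddled siControl replicate 1, so the groups overlapped, and the log2 fold change was 0.15 (SE 0.085, adjusted p = 0.565). Without siLOC730101 replicate 1 the value was 0.22 (adjusted p = 0.00862), and without siControl replicate 2 it was 0.014 (adjusted p = 0.992). KLK2, a kallikrein that can cleave the KLK3 proenzyme (chromosome 19, 50861568 to 50880567), had 977 and 847 CPM in siControl and 963 and 1001 CPM in siLOC730101, and its groups overlapped in the same way (log2 fold change 0.11, adjusted p = 0.673). KLK2 and KLK3 are similar in sequence, and reads that fit both could have been divided or dropped in the counting. The ratio of KLK3 to KLK2 counts was 1.86 and 1.76 in siControl and 1.82 and 1.91 in siLOC730101, again with overlapping groups. KLK4, an enamel and prostate protease on the same chromosome, stood at 279 ± 14.1 CPM against 301 ± 22.1 CPM (SD, n = 2).

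AZGP1, a secreted zinc-binding glycoprotein linked to lipid mobilization (chromosome 7, 99966720 to 99976042), had the largest difference of the 38 genes. It had 25.0 and 18.1 CPM in siControl and 31.9 and 36.8 CPM in siLOC730101. Both siLOC730101 libraries were above both siControl libraries, and the siControl pair itself was 0.46 apart on the log2 scale. The fitted level was 1.59-fold higher in siLOC730101 (95% interval 1.29 to 1.97, log2 fold change 0.67, SE 0.14), with an adjusted p of 0.0715 in edgeR and 0.00772 in DESeq2. Over the alternatives tried its adjusted p ran from 3.19e-06 to 0.225 and its log2 fold change from 0.46 to 0.92, always above 0. It was called without siControl replicate 1 (0.92, adjusted p = 2.60e-05), without siLOC730101 replicate 1 (0.78, adjusted p = 7.42e-06) and without siLOC730101 replicate 2 (0.56, adjusted p = 0.0316), and not without siControl replicate 2 (0.46, adjusted p = 0.225). ACP3, prostatic acid phosphatase (chromosome 3, 132317369 to 132368298), had 54.7 and 51.6 CPM in siControl and 47.5 and 49.0 CPM in siLOC730101. Both of its siLOC730101 libraries were below both siControl libraries, with a log2 fold change of -0.14 that did not pass the test (adjusted p = 0.638).

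**Figure D3:**
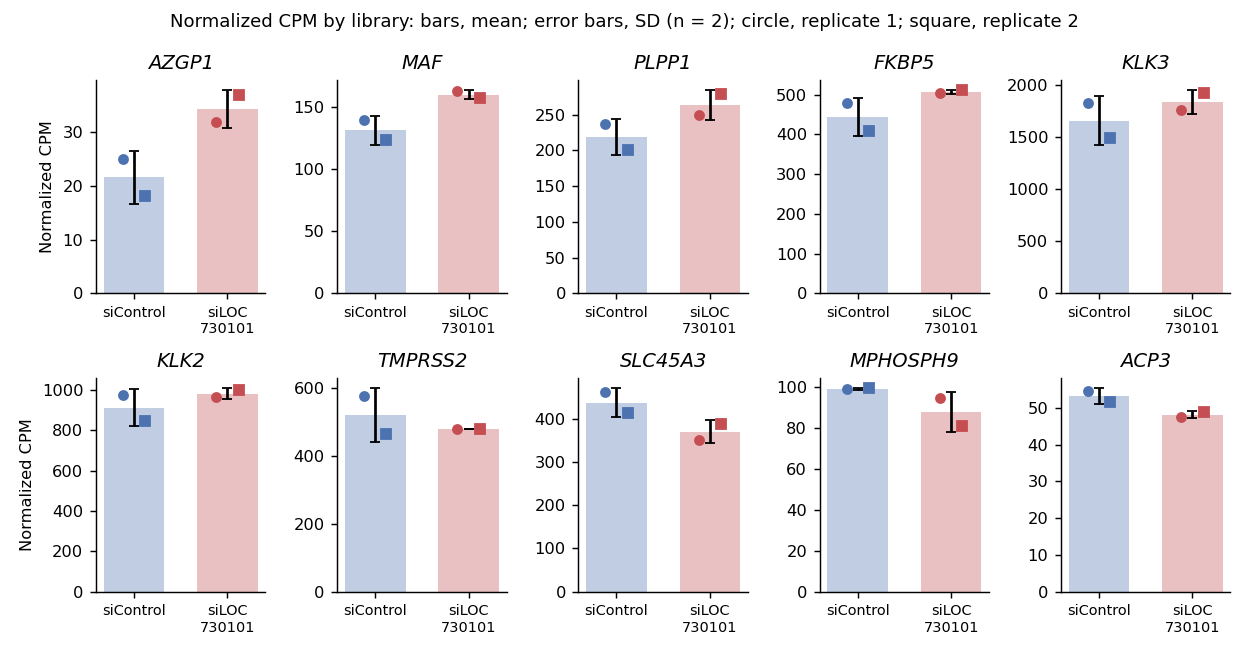
Normalized CPM of the 10 genes described by library, with bars for the group mean, error bars for the SD (n = 2), circles for replicate 1 and squares for replicate 2; every axis starts at 0. AZGP1, MAF, PLPP1 and FKBP5 have both siLOC730101 points above both siControl points, SLC45A3, MPHOSPH9 and ACP3 have both below, and KLK3, KLK2 and TMPRSS2 overlap.

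Of the 6 membrane proteins, receptors and channels, 2 had a log2 fold change above 0 and 4 below, with a median of -0.066. TMPRSS2, a membrane serine protease whose promoter is fused to ETS genes in many prostate cancers (chromosome 21, 41464300 to 41531116), had 576 and 464 CPM in siControl and 480 and 479 CPM in siLOC730101. Both siLOC730101 values lay between those of the siControl libraries, and the log2 fold change of -0.12 (adjusted p = 0.700) became 0.048 if siControl replicate 1 was left out and -0.26 if replicate 2 was. Of the exon length of TMPRSS2, 8.53% is shared with MX1 on the opposite strand, and the counting did not use strand. SLC45A3, the prostate membrane transporter prostein (chromosome 1, 205657851 to 205680509), had 461 and 413 CPM in siControl and 352 and 389 CPM in siLOC730101. Both siLOC730101 libraries were below both siControl libraries, and this was the lowest log2 fold change of the 38 genes (-0.24, SE 0.079, 95% interval -0.41 to -0.071, adjusted p = 0.236). It passed without siLOC730101 replicate 2 (-0.32, adjusted p = 0.00406), but not without siControl replicate 1 (-0.16, adjusted p = 0.690), without siLOC730101 replicate 1 (-0.16, adjusted p = 0.222) or without siControl replicate 2 (-0.31, adjusted p = 0.280). The other 4, which were the cold-sensing channel TRPM8, the TGF-β pathway inhibitor PMEPA1, the leukaemia inhibitory factor receptor LIFR and the prostaglandin E2 receptor PTGER4, had log2 fold changes from -0.15 to 0.014 and overlapping groups. TRPM8 was at 67.5 ± 6.35 CPM in siControl and 67.6 ± 0.695 CPM in siLOC730101, the smallest difference among the 38 genes. PTGER4 had the widest replicate spread of these, at 12.3 and 7.82 CPM in siControl and 7.59 and 10.6 CPM in siLOC730101.

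The chaperone, kinase and signalling group of 8 genes had 5 log2 fold changes above 0 and 3 below, with a median of 0.055. FKBP5, a co-chaperone of steroid receptors and a sensitive androgen response gene (chromosome 6, 35573585 to 35728583), had 478 and 410 CPM in siControl and 504 and 511 CPM in siLOC730101. Both siLOC730101 libraries were above both siControl libraries, with a fitted log2 fold change of 0.19 (SE 0.080, adjusted p = 0.379). The siControl libraries differed from each other by 0.22 on the log2 scale, though a ratio of single libraries varies more than one of group means. HERC3, a HECT-type ubiquitin ligase, was the other gene of the group with groups that did not overlap, at 306 ± 19.7 CPM in siControl and 335 ± 14.2 CPM in siLOC730101 (adjusted p = 0.573). The remaining 6 were CAMKK2, the kinase upstream of AMPK, SGK1 and STK39, a pair of kinases that control ion transport, the scaffold HOMER2, the stress protein NDRG1 and C1orf116, also named specifically androgen-regulated gene. Their log2 fold changes ran from -0.044 (C1orf116) to 0.12 (NDRG1), and their groups overlapped. SGK1, which glucocorticoids also induce, was the weakest of the 38 genes per kilobase and had 8.40 and 11.2 CPM in siControl and 9.15 and 10.0 CPM in siLOC730101.

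Of the 8 transcription factors and elongation or Mediator proteins, 6 had a log2 fold change above 0 and 2 below, with a median of 0.094. MAF, a basic leucine zipper factor (chromosome 16, 79585843 to 79600737), had 139 and 123 CPM in siControl and 163 and 157 CPM in siLOC730101. Its siLOC730101 libraries were above both siControl libraries, and the log2 fold change was 0.28 (SE 0.083, 95% interval 0.11 to 0.46), with an adjusted p of 0.170 in edgeR and 0.0410 in DESeq2; over the alternatives the adjusted p ran from 0.0112 to 0.761. It passed without siLOC730101 replicate 1 (0.27, adjusted p = 0.0266) and without siLOC730101 replicate 2 (0.31, adjusted p = 0.0362), but not without siControl replicate 1 (0.38, adjusted p = 0.153) or siControl replicate 2 (0.20, adjusted p = 0.761). SPDEF, an ETS factor of secretory epithelium, had 237 and 241 CPM in siControl and 253 and 298 CPM in siLOC730101, with most of the difference in siLOC730101 replicate 2 (log2 fold change 0.21, adjusted p = 0.362). TSC22D1, a leucine zipper protein of TGF-β signalling, stood at 274 ± 9.65 CPM and 304 ± 27.0 CPM (adjusted p = 0.534), and 13.1% of its exon length overlaps other genes. ZBTB16, the zinc-finger factor PLZF, was the 1 gene of this group with both siLOC730101 libraries below both siControl libraries, at 124 ± 9.91 CPM in siControl and 115.5 ± 2.23 CPM in siLOC730101 (adjusted p = 0.712). The zinc-finger factor ZBTB10, the elongation factor ELL2, its partner EAF2 and the Mediator subunit MED28 had overlapping groups and log2 fold changes from -0.11 (EAF2) to 0.11 (ELL2). Of the exon length of MED28, 32.1% is shared with FAM184B on the opposite strand, so its counts are uncertain.

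The 8 metabolic enzymes and lipid proteins had 7 log2 fold changes above 0 and 1 below, with a median of 0.17. PLPP1, a membrane enzyme that dephosphorylates lipid phosphates (chromosome 5, 55424854 to 55534969), had 237 and 200.5 CPM in siControl and 249 and 279 CPM in siLOC730101. Both siLOC730101 libraries were above both siControl libraries (log2 fold change 0.27, SE 0.089, adjusted p = 0.235), and leaving out a library gave values from 0.16 to 0.40. The gene passed without siLOC730101 replicate 1 (0.36, adjusted p = 1.75e-04), but not without siControl replicate 2 (0.16, adjusted p = 0.853), without siLOC730101 replicate 2 (0.19, adjusted p = 0.468) or without siControl replicate 1 (0.40, adjusted p = 0.0947). Of its exon length, 29.6% is shared with RNF138P1 on the same strand or MTREX on the opposite strand. ALDH1A3, which makes retinoic acid, was the other gene whose groups did not overlap, at 18.4 ± 1.20 CPM in siControl and 21.5 ± 1.36 CPM in siLOC730101 (adjusted p = 0.576), and 33.3% of its exon length is shared with other genes. HPGD, which inactivates prostaglandins, had the second highest log2 fold change of the 38 genes (0.40, 95% interval -0.095 to 0.89), but its groups overlapped and leaving out siControl replicate 1 gave 0.82 while leaving out replicate 2 gave 0.079. It had 8.62 and 5.15 CPM in siControl and 9.66 and 8.51 CPM in siLOC730101. GNMT, the glycine methyltransferase whose window held a letter match to the full element after the start, also overlapped. It had 15.9 and 10.2 CPM in siControl and 13.0 and 17.7 CPM in siLOC730101.

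The other 4 metabolic genes were abundant and differed little between the groups. Sorbitol dehydrogenase (SORD) stood at 990 ± 72.2 CPM in siControl and 1071 ± 44.3 CPM in siLOC730101, with a log2 fold change of 0.11. Its near-identical pseudogene SORD2P, named here after its values were seen, stood at 18.3 ± 1.43 CPM in siControl and 14.9 ± 1.01 CPM in siLOC730101 (log2 fold change -0.30, adjusted p = 0.462), and the division of reads between the copies is uncertain. The acyl-CoA synthetase ACSL3, the lipid droplet-associated protein TPD52 and the galactosyltransferase B4GALT1 had log2 fold changes from -0.024 (B4GALT1) to 0.065 (ACSL3). Of the exon length of TPD52, 10.8% is shared with another gene on the same strand.

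The last group held a protease and a pair of chromosome or cell division proteins, with 1 log2 fold change above 0 and 2 below and a median of -0.033. MPHOSPH9, a centrosome and cilium protein (chromosome 12, 123152320 to 123244014), had 99.1 and 99.5 CPM in siControl and 94.9 and 81.1 CPM in siLOC730101. Both siLOC730101 libraries were below both siControl libraries, with most of the difference in replicate 2 (log2 fold change -0.17, SE 0.090, adjusted p = 0.523), and the gene passed without siLOC730101 replicate 1 (-0.28, adjusted p = 0.0468) but was at -0.068 without siLOC730101 replicate 2 (adjusted p = 0.976). NCAPD3, a condensin II subunit, had 835 and 643 CPM in siControl and 838 and 782 CPM in siLOC730101. Its groups overlapped (log2 fold change 0.13), and 11.9% of its exon length is shared with other genes on the opposite strand. The extracellular protease ADAMTS1 stood at 27.8 ± 1.34 CPM and 27.1 ± 2.21 CPM.

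The siControl libraries differed from each other in 1 direction in most of these genes. siControl replicate 1 was above replicate 2 in 29 of the 38 genes (76.3%), where 50.3% of all genes tested were, and the median log2 ratio of replicate 1 over replicate 2 was 0.14 against 0.0016 over all genes tested. KLK3, KLK2, FKBP5, NDRG1, TMPRSS2 and NCAPD3 were among them, with log2 ratios from 0.21 to 0.38. The siLOC730101 libraries had a median log2 ratio of -0.030 over the 38 genes, and replicate 1 was above replicate 2 in 16 of them (42.1%), against 48.3% of all genes tested. The absolute log2 ratio of the siControl pair was larger than the absolute knockdown log2 fold change in 26 of the 38 genes (68.4%), with medians of 0.146 and 0.114. That share was 52.8% over all genes tested, with medians of 0.172 and 0.167. Among the 11264 genes with a mean of at least 5 CPM, as all 38 have, it was 47.2%, with medians of 0.097 and 0.107. A ratio of 2 single libraries varies more than a fold change between group means, so these shares are descriptive only. Leaving out siControl replicate 1 put the median knockdown log2 fold change of the 38 genes at 0.104, and leaving out replicate 2 put it at 0.0052, against 0.0054 and 0.0037 over all genes tested. The source of the difference between the siControl libraries was not tested.

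**Figure D4:**
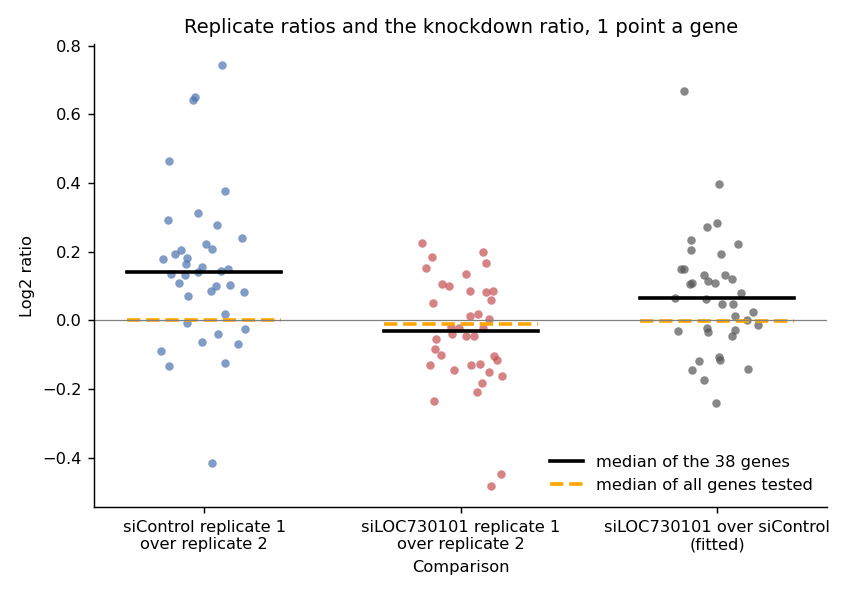
Log2 ratios of the 38 genes, 1 point a gene, for siControl replicate 1 over 2, siLOC730101 replicate 1 over 2, and the fitted siLOC730101 against siControl; black lines are medians of the 38 genes and dashed lines medians of all genes tested. The siControl points centre on 0.14 and the knockdown points on 0.064. A ratio of single libraries varies more than one of group means.

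Lists of the wider pathway were then read. FOXA1, which opens chromatin at androgen-responsive enhancers, had 667 and 686 CPM in siControl and 707 and 753 CPM in siLOC730101, and its groups did not overlap (log2 fold change 0.11, adjusted p = 0.617). HOXB13, a prostate homeobox factor, stood at 389 ± 7.33 CPM and 401 ± 25.6 CPM (adjusted p = 0.903). The glucocorticoid receptor NR3C1, which can bind many androgen response elements, was low at 7.16 ± 1.18 CPM and 6.77 ± 1.16 CPM (adjusted p = 0.943). Of 10 steroid receptors and pioneer or lineage factors, 8 were tested and 0 were called in edgeR, with a median log2 fold change of 0.036, and DESeq2 called 0 of 6. At an unadjusted p under 0.05 in edgeR, 1 was higher (SOX9, named after its values were seen) and 0 lower, against 6.43% and 4.39% of all genes tested.

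Of 20 coregulators and chaperones of the pathway, 1 was called higher and 0 lower, against 0.212% and 0.0724% of all genes tested. At an unadjusted p under 0.05, 2 were higher and 1 lower, against 6.43% and 4.39%, and the median was -0.0046. The called gene was STUB1, the ubiquitin ligase CHIP that works with HSP70 and HSP90 (chromosome 16, 680224 to 682870). It had 96.8 CPM in both siControl libraries and 121 and 160 CPM in siLOC730101 (log2 fold change 0.54, SE 0.11, adjusted p = 0.0482), with the higher value in replicate 2. The adjusted p was 0.0576 with DESeq2's size factors and 0.0522 with upper-quartile factors, so the call did not hold under these scalings; over all alternatives it ran from 5.25e-15 to 0.0576. The log2 fold change ran from 0.32 to 0.73 when a library was left out.

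A further 64 androgen-response genes outside the 38, of which 63 were tested, had a median of 0.036, with 0 called in edgeR, 9 higher and 1 lower (CENPN, named after its values were seen) at an unadjusted p under 0.05, against 6.43% higher and 4.39% lower over all genes tested. Among 8 genes that androgens repress, all tested, 0 were called in edgeR, 0 were higher and 3 were lower at an unadjusted p under 0.05 (FOLH1, OPRK1 and UGT2B15, named after their values were seen), and the median was -0.28. DESeq2 called 4 of the further androgen-response genes higher (DBI, HMGCS1, MYL12A and SMS, named after their values were seen) and 0 lower of 58 with an adjusted p, against 2.41% and 0.663% over all genes, and gave an adjusted p to 1 of the repressed genes, which was not called. In the 38 androgen-induced genes the median was 0.064. The median half-width of the 95% interval was 0.82 on the log2 scale in the repressed list and 0.18 in the 38 genes. Apart from FOLH1, the repressed genes had at most 220 counts in a library, and CCN3 had 6 to 18, so the median of that list is imprecise. FOLH1, prostate-specific membrane antigen, was the abundant one of the repressed genes, with 1141 and 1112 CPM in siControl and 1022 and 1021 CPM in siLOC730101 (log2 fold change -0.14, adjusted p = 0.455). OPRK1, the kappa opioid receptor, had 213 and 220 counts in siControl and 109 and 108 in siLOC730101 (log2 fold change -0.65, adjusted p = 0.391). UGT2B15, which glucuronidates androgens, had 50 and 60 counts in siControl and 14 and 12 in siLOC730101 (log2 fold change -1.74, adjusted p = 0.301), and reads of its near-identical relative UGT2B17 may be divided between them. Of the 8 repressed genes, 4 had both siLOC730101 libraries below both siControl libraries (these 3 and CAMK2N1, named after its values were seen) and 0 had both above. Over all genes tested, 20.5% lay below and 21.3% above in that way. The 3 genes were picked by a p in that direction, so their separation adds no support. The other 13 kallikreins of the cluster, the pseudogene KLKP1 included, had at most 301 counts in a library. Of these, 5 were at 0 counts in all 4 libraries (KLK8, KLK9, KLK11, KLK12 and KLK13), 9 had at most 10 counts in each, and of the 4 tested (KLK1, KLK14, KLK15 and KLKP1) 0 were called by edgeR, with 0 at an unadjusted p under 0.05, and DESeq2 gave 0 of them an adjusted p.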

How the data were processed

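RNA was measured in 4 libraries, grouped by their labels. The authors deposited raw counts per gene from featureCounts 2.0.1, whose file header names hg38 and gencode 41 and no strand or paired-end option. The paper's methods name hg19 and STAR, and the submitters' processing notes list BWA; which was used is uncertain, and positions here are those of the table. Between 66.0% and 70.1% of the counts from 1 to 20 were even, as when mates are counted apart. All gene rows were used.

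Counts were filtered with filterByExpr, scaled with TMM and fitted with condition as the only term in edgeR 4.0.16 (quasi-likelihood test, legacy method; R 4.3.3), with Benjamini-Hochberg adjustment over 19349 genes. The biological coefficient of variation was 0.147. SEs were derived from the F statistic. The chi-square per degree of freedom between replicates was 11.27 in siControl and 14.2 in siLOC730101. CPM are normalized, except in the marker sums, which used raw library totals, and exon lengths are from the table. Alternatives were other scalings, no filter, DESeq2 1.42.0, a replicate block, other quasi-likelihood settings, halved counts and each library left out. Motifs were searched with Python 3.11.15, and promoter windows were aligned with biopython 1.88.

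The members and lists were chosen with earlier results of these data known. Genes were named by a rule: every member by role, LOC730101, FOXA1, HOXB13, NR3C1, and any pathway gene with an adjusted p under 0.05. Values by library were given for the 3 highest and 3 lowest log2 fold changes whose groups did not overlap, and for KLK3, KLK2, TMPRSS2 and FKBP5; other genes with such values were chosen after they were seen. Results for 1 further gene, which stayed in the fit, are not reported here. The authors' other assays are not analysed here.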

Additional observations from a re-analysis of the deposited data

How the results depend on the processing

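Of the values of the 38 genes under the alternatives, 442 kept their direction and side of the threshold, 20 passed it, and 32 changed sign, and AZGP1 stayed above 0 and SLC45A3 below 0 in each. Under no filter 324 genes were higher and 113 lower, under DESeq2 233 and 64, with the legacy method off 87 and 24, with halved counts 113 and 35, and with library size only 35 were lower. Among the 38 genes, 1 was higher under no filter, with the legacy method off and with halved counts (AZGP1), and 2 under DESeq2. Over all genes with an adjusted p, 1.01% were higher under no filter and 0.450% with the legacy method off. With halved counts 0.667% were higher, and under DESeq2 2.41%. In the same order, 0.354%, 0.124%, 0.207% and 0.663% of all genes were lower, and 0 of the 38. With the replicate block, 485 genes were higher and 167 lower (2.51% and 0.863%). Among the 38 genes 3 were higher in that fit (AZGP1, MAF, PLPP1) and 1 lower (SLC45A3). It adds a replicate term to only 4 libraries, which leaves little to estimate the spread, so its calls are descriptive only. Deviations of same-numbered libraries had a correlation of -0.0009 over all genes tested. Whether same-numbered samples shared a batch was not tested, and the labels do not say. Leaving out a library gave 77 to 923 genes higher and 26 to 272 lower, 0 to 6 of the 38 higher and 0 to 1 lower, and 22 to 31 whose groups did not overlap, where 67.8% to 72.2% of all genes did not overlap in these fits, since 1 group then held a single library.

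The sign of small log2 fold changes depended on the scaling or on a library. TRPM8 was -0.0017 with DESeq2's size factors, -0.030 with upper-quartile factors, -0.036 with library size only, -0.0032 under no filter, -0.00035 with the legacy method off and -0.0046 with halved counts. LIFR was -0.016 with upper-quartile factors and -0.022 with library size only, and TPD52 -0.0069 and -0.013. The median over all genes tested was itself -0.033 and -0.039 under these scalings, against -0.0021 in the main fit. When a library was left out, the log2 fold change ran from -0.26 to 0.048 for TMPRSS2, from -0.43 to 0.22 for PTGER4, from -0.093 to 0.045 for CAMKK2, from -0.013 to 0.11 for STK39, from -0.11 to 0.030 for C1orf116, from -0.11 to 0.045 for ADAMTS1, from -0.088 to 0.10 for TRPM8, from -0.056 to 0.085 for LIFR, from -0.22 to 0.19 for SGK1, from -0.0091 to 0.27 for NDRG1, from -0.019 to 0.16 for ACSL3, from -0.048 to 0.59 for GNMT, from -0.027 to 0.081 for TPD52, from -0.041 to 0.34 for NCAPD3 and from -0.070 to 0.045 for PMEPA1. Apart from the alternatives whose own construction changes the scaling, or the genes or samples tested, the cause was not tested.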
